A study of Mus musculus with 19 samples.

Results

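The genes described here are the expressed members of the mouse *Zfp* family, the zinc finger protein genes whose symbol is Zfp followed by a number. A protein-coding gene with such a symbol was taken when its mean over all 19 libraries was at least 1 FPKM (fragments per kilobase of exon, relative to the depth of the library), and *Zfp36* and *Zfp352* were left out by the rule. Of the 25891 genes in the deposited table, 353 carried such a symbol and 71 of these passed, while 282 stayed under the level. Just inside the limit were *Zfp709* at 1.02, *Zfp951* at 1.03 and *Zfp30* at 1.04 FPKM, and just outside it *Zfp472* at 0.992, *Zfp978* at 0.923 and *Zfp936* at 0.892 FPKM. The level of the 71 genes is therefore no result. The mean ran over both stages and both genotypes, and 19 of the 71 genes averaged under 1 FPKM in the MII libraries and 18 under 1 FPKM in the 2cell libraries, so the choice is also tied to the difference between the stages. It is tied to single groups as well, since 14 genes would average under 1 FPKM without the libraries of 1 of the 4 groups.

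The material was MII oocytes, which are mature and wait in metaphase of the second meiotic division for fertilization, and 2cell embryos. Superovulated BL6 females of 6 to 10 weeks had received 5 IU of PMSG and, 48 h later, 5 IU of hCG, and the embryos, which grew in culture after mating, were taken 37 h after hCG. The females were CPEB3+/- (labelled Het) or CPEB3-/- (labelled KO), an oocyte-specific knockout of the RNA-binding protein CPEB3 in which a Cre recombinase under the Zp3 promoter deletes the LoxP-flanked gene. The oocyte stage had 5 libraries of each genotype, and the embryo stage had 5 for CPEB3+/- and 4 for CPEB3-/-. They are lettered A to E, and each was made from a small pool of cells. No wild-type library was among them, and the genotype given for an embryo is the label of its mother. In the matings of knockout females that the paper describes the males were wild-type, so an embryo's own genotype can differ from its label. Nothing says that the libraries of a group came from separate females, so the p values measure the spread between libraries.

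The depth, read from the steps between low values, was about 17120000 to 23480000 fragments per library, and 1 FPKM at the median exon length of the 71 genes corresponded to about 77.0 fragments. *Cpeb3* itself did not fall in the knockout libraries. Its MII level averaged 0.0755 ± 0.0240 FPKM (SD over 5 libraries) with CPEB3+/- and 0.162 ± 0.0325 FPKM (5 libraries) with CPEB3-/-, and did not reach the level tested in 2cell embryos, so the table did not check the genotypes and "CPEB3-/-" below means the libraries labelled so. All 10 oocyte markers listed averaged at least 1 FPKM in the MII groups, and all 7 markers of 2cell embryos did so in the 2cell groups. The oocyte markers summed to 1566 to 1916 FPKM in CPEB3+/- and 1296 to 1490 FPKM in CPEB3-/- MII libraries, and the 2cell markers to 38.1 to 45.6 and 46.2 to 61.5 FPKM there, so both sums were separated by genotype in MII oocytes, and their part in the results below was not tested. The 10 cumulus cell markers found summed to at most 0.873 FPKM in any library. Of 6 blood markers listed, the 2 found summed to at most 0.428 FPKM in MII libraries. In 2cell libraries of both genotypes they summed to between 46.2 and 146 FPKM, and their part in the results was not tested either. As each library is a pool, fewer cells with a transcript and less of it per cell cannot be told apart.

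Zinc finger proteins of this family read DNA through repeated fingers that each hold a zinc ion between cysteines and histidines. Many of them also carry a KRAB box, which recruits the corepressor TRIM28 and, through it, the histone methyltransferase SETDB1, so that the bound DNA becomes silent heterochromatin. In the oocyte and the early embryo such proteins are known for keeping imprints and for silencing retroelements. Other family members are not repressors at all and work in splicing, ribosome assembly or protein degradation.

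A KRAB A-box pattern, defined as at least 8 of 11 core residues in an annotated protein of the gene, was found in 38 of the 71 genes. Over the genome 300 of 21501 genes scanned had it. KRAB genes below are those with the pattern, which can miss a KRAB box. The 38 KRAB genes had a median of 11.5 fingers of the C2H2 type and the 33 others a median of 5, with a range over all of 0 to 19. The others include genes with many fingers, such as *Zfp708* with 16 and *Zfp235* with 15. The exons of the 38 genes had a median GC content of 42.5%, against 48.7% for the others. Both features recur below, because the genes that fell in CPEB3-/- libraries were mostly poor in GC and mostly of the KRAB kind. The 71 genes lay on 18 chromosomes, and 25 of them lay in 10 clusters in which neighbours were less than 1 Mb apart. Of all 71, 17 shared over 10% of their 50-base words with other genes on either strand. Reads of these genes could be split or lost, which leaves their levels uncertain. Not all of them have copies elsewhere, since words of genes annotated at the same place were counted too. Exons of *Zfp708*, *Zfp58* and *Zfp566* overlap genes of the same strand, and those of *Zfp593* and *Zfp703* genes of the opposite strand. Opposite-strand overlaps span 2719 bases in *Zfp106* (*Gm26899*) and 263 bases in *Zfp296* (*Gemin7*) as well. *Zfp979* shares 24.6% of its words with other genes, the most with *Zfp978*.

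The levels spanned a wide range. In 63 of the 71 genes the mean was under 5 FPKM, and in 5 it was over 10 FPKM. The highest was *Zfp830* (66.4 FPKM), a factor of RNA splicing. *Zfp706* (55.7 FPKM), which codes for a very small protein implicated in control of translation, and *Zfp57* (36.5 FPKM), a KRAB protein that protects imprints, followed. *Zfp655* (24.5 FPKM), *Zfp296*, a transcription factor of pluripotent and germ cells, and *Zfp513* (7.95 FPKM) completed the 6 highest. The summed level of the 71 genes was 381 to 403 FPKM in CPEB3+/- and 359 to 377 FPKM in CPEB3-/- MII libraries, and 315 to 359 against 305 to 327 FPKM in 2cell libraries. As a share of all FPKM, however, it was 0.442 to 0.476% against 0.440 to 0.488% in MII oocytes and 0.205 to 0.253% against 0.248 to 0.284% in embryos.

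To find which of these genes differed between genotypes in the oocyte, CPEB3-/- and CPEB3+/- MII libraries were compared. Each difference below is a log2 fold change of scaled FPKM + 0.1, and a gene was called when its adjusted p was under 0.05 and the change over 1.5-fold. Of the 71 genes, 61 reached the level tested, and 60 of these had at least 0.1 FPKM in every MII library. The 10 not tested were *Zfp30*, *Zfp386*, *Zfp54*, *Zfp566*, *Zfp599*, *Zfp622*, *Zfp637*, *Zfp707*, *Zfp809* and *Zfp948*, which belong to the embryo and are described with the stages. In CPEB3-/- oocytes 10 genes were called lower (16.4%) and 2 higher (3.28%), where 7.29% of all 10515 tested genes were called lower and 5.59% higher. The median difference was -0.21 over the 61 genes and 0.01 over all tested genes. Among the 4806 tested genes that share the level of at least 1 FPKM, 9.13% were called lower and 5.95% higher, with a median of -0.01. In 9 of the 61 genes every CPEB3-/- library lay below every CPEB3+/- library and in 5 above, where 7.57% and 8.71% of all tested genes did so. Without the 4 genes that reached the level of 1 FPKM only with 1 of the MII groups, 9 of 57 were lower and 2 higher. With a pseudocount of 1 FPKM 6 were lower and 1 higher, 7 in all, while the share of all genes called went from 12.9% to 4.57%. Without CPEB3-/- library A, 6 were called lower and 1 higher. Scaling to the sum of FPKM, which moved the median of all genes to 0.15, gave 7 lower (11.5%) and 3 higher (4.92%), against 4.53% and 10.6% of all genes so scaled.

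The same question was put to the embryo. All 71 genes were tested in 2cell libraries, and 70 of them had at least 0.1 FPKM in every one. In CPEB3-/- embryos 18 genes were called lower (25.4%) and 7 higher (9.86%), against 9.54% lower and 8.53% higher of all 14051 tested genes. The median difference was -0.22, compared with 0.00 over all tested genes. Of the 5272 tested genes with a mean of at least 1 FPKM, 15.1% were called lower and 8.71% higher, with a median of -0.12, so the distance of the Zfp genes from genes of their own level was smaller. Without the 10 genes that reached the level of 1 FPKM only with 1 of the 2cell groups, 15 of 61 were lower and 6 higher. With a pseudocount of 1 FPKM 10 were lower and 4 higher, 14 in all, while the share of all genes called went from 18.1% to 8.27%. Every CPEB3-/- library lay below every CPEB3+/- library in 18 genes and above in 11, against 9.56% and 10.4% of all tested genes. The split depended on the scaling, since scaling to the sum of FPKM called 11 lower (15.5%) and 15 higher (21.1%), against 4.06% and 17.3% of all genes so scaled, turned the median of the 71 genes to 0.11 and moved that of all genes to 0.26. With the trend on GC content removed 9 were called lower (12.7%) and 5 higher (7.04%), against 7.24% and 6.02% of all genes. In a fit of genes with a mean of at least 1 FPKM over the 2cell libraries 12 of 53 were lower (22.6%) and 10 higher (18.9%), against 12.9% and 13.6% of all genes fitted. The median of the 53 genes there turned to 0.10, with 28 genes above 0 and 25 below, against a median of 0.00 over all genes fitted.

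Both comparisons use separate libraries. Of the 61 genes tested in both, 48 differed in the same direction (78.7%) and none was called in opposite directions, where 67.0% of the 9335 genes tested in both had the same direction and 0.214% opposite calls. Called lower in both stages were 7 genes, *Zfp770*, *Zfp982*, *Zfp942*, *Zfp873*, *Zfp345*, *Zfp932* and *Zfp961*, which are 70.0% of those lower in MII oocytes and, among genes tested in both, 41.2% of those lower in embryos. Over all genes tested in both, 259 were lower in both stages, or 36.8% and 25.2% of the lower genes, and at a mean of at least 1 FPKM 41.0% and 24.3%. No test of this difference was made. Only *Zfp703* was called higher in both. In 42 of the 71 genes neither stage gave a call. Of the 7 genes, all but *Zfp961* had under 42% GC in their exons, and all but *Zfp770* hold the KRAB pattern.

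**Figure D1:**
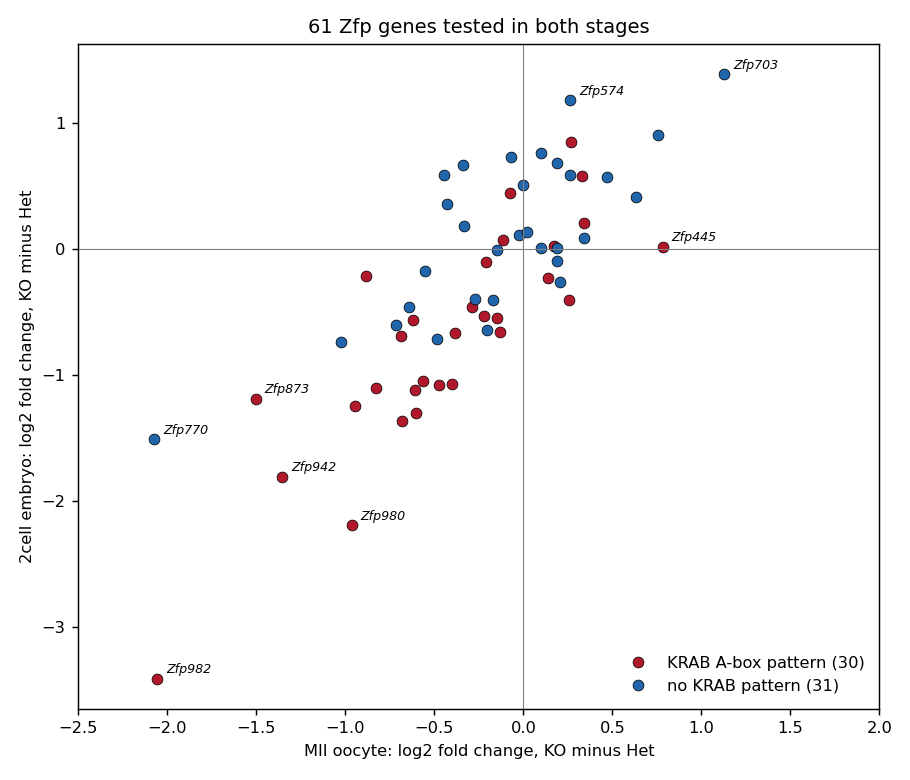
Log2 fold change of CPEB3-/- minus CPEB3+/- in MII oocytes (x axis) and in 2cell embryos (y axis) for the 61 Zfp genes tested in both, with genes that hold a KRAB pattern in red and the others in blue. *Zfp982* lies farthest from 0, at -2.06 and -3.41, and 48 of the 61 points have the same sign on both axes.

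*Zfp770* showed the largest fall of the 61 genes in MII oocytes. It codes for a protein with 10 C2H2 fingers and no KRAB pattern, lies on chromosome 2 (GRCm38 chr2:114193461-114201469, minus strand), and was a candidate that the study picked from these libraries, so its fall is not independent evidence. Its level in the 5 CPEB3+/- MII libraries was 7.06, 4.57, 7.89, 6.32 and 4.89 FPKM (mean 6.14 ± 1.41). In the CPEB3-/- MII libraries it was 0.662, 1.43, 2.00, 1.77 and 1.84 FPKM (mean 1.54 ± 0.534). The genotypes did not overlap, and the difference was -2.07 (SE 0.30, adjusted p = 0.00171). The 2cell embryos gave 7.61, 6.99, 5.73, 5.33 and 7.43 FPKM for CPEB3+/- and 2.11, 2.23, 2.80 and 2.15 FPKM for CPEB3-/-, again with no overlap. This fall was -1.51 (SE 0.17, adjusted p = 0.00118). Between the stages *Zfp770* moved little, by -0.11 in CPEB3+/- (SE 0.26, adjusted p = 0.720) and by 0.49 in CPEB3-/- (SE 0.27, adjusted p = 0.115), and it stayed called lower in both comparisons when the GC trend was removed (-1.76 and -1.09) and when any library was left out.

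CPEB proteins bind cytoplasmic polyadenylation elements in the 3′UTR, of which UUUUAU is the standard form. The longest annotated 3′UTR of *Zfp770* has 2008 bases and holds 3 matches to UUUUAU. They are given here with *Zfp345* and *Zfp873*, the other genes lower in both stages that hold a match, as a description, since proteins of the CPEB family are known to bind this element, although CPEB3 itself is held to bind it weakly. The UUUUAU is in capitals, each site is written 5′ to 3′ on the transcript's strand, and sequences and positions are from GENCODE vM21 on GRCm38.
Zfp770 site 1, chr2:114195165-114195194, minus strand: gugugucuuuggUUUUAUgcguaucuccca
Zfp770 site 2, chr2:114195075-114195104, minus strand: uggaagcguacaUUUUAUugcaaaacaguu
Zfp770 site 3, chr2:114193843-114193872, minus strand: uaauuuauauaaUUUUAUuugaaaagaaau
Zfp345 site 1, chr2:150471578-150471607, minus strand: uauauagagaguUUUUAUguuugaaaacca
Zfp345 site 2, chr2:150471161-150471190, minus strand: gccagucaugguUUUUAUgaacaaaagaug
Zfp873 site, chr10:82061537-82061566, plus strand: aauacauuaaugUUUUAUgauucuccuuca
The *Zfp873* site ends 32 bases and the third *Zfp770* site 394 bases before the end of the 3′UTR. *Zfp982*, *Zfp942*, *Zfp932* and *Zfp961* hold no UUUUAU in their longest annotated 3′UTR. Such a match is a description of the annotated sequence, and binding was not measured here.

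Over all 71 genes, 43 (60.6%) held UUUUAU in the sense strand of the longest 3′UTR, compared with 55.5% of the 3617 other protein-coding genes with a mean of at least 1 FPKM and 53.6% of all 16879 that have an annotated one. It was held by 4 of the 10 Zfp genes that fell in CPEB3-/- oocytes, and by 33 of the 49 not called, whereas over all protein-coding genes tested it was held by 65.1% of the lower and 59.9% of those not called. In embryos, 11 of the 18 lower, 27 of the 46 not called and 5 of the 7 higher held it, and over all protein-coding genes 61.3%, 55.0% and 47.2%. The median 3′UTR was 666 bases in the 10 genes lower in oocytes and 1174 bases in the 49 not called, but 1358 bases in the 18 lower in embryos and 976 bases in the 46 not called there. Over all protein-coding genes the lower and the not called had medians of 882.5 and 1095 bases in oocytes and 926 and 992 bases in embryos, and the higher of 827.5 and 983.5 bases. Among the Zfp genes the 2 higher in oocytes had a median of 2185.5 bases and the 7 higher in embryos 1235 bases. The longest 3′UTR can come from an isoform with a shorter protein and then hold bases that code in another isoform. In *Zfp616* it has 4349 bases against 5027 exon bases in all, although the longest protein has 987 residues. Lengths and matches can be too high in such genes, which were not counted.

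*Zfp982*, a KRAB gene with 7 fingers on chromosome 4, had the largest fall of all 71 genes in embryos. The CPEB3+/- MII libraries gave 4.90, 2.29, 6.84, 3.51 and 1.83 FPKM and the CPEB3-/- ones 0.325, 0.979, 0.921, 0.943 and 1.20 FPKM. In embryos the values were 10.2, 6.92, 2.91, 6.07 and 6.35 FPKM against 0.288, 0.706, 0.628 and 0.442 FPKM. Neither stage showed overlap, although the CPEB3+/- libraries spread over more than 3-fold in each. The falls were -2.06 (SE 0.42, adjusted p = 0.00926) and -3.41 (SE 0.37, adjusted p = 0.00116). Of its 50-base words, 11.5% are shared with other genes, the most with *Gm13147*.

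*Zfp942*, a KRAB gene of a chromosome 17 cluster, fell by 1.35 in oocytes (SE 0.27, adjusted p = 0.00833) and by 1.81 in embryos (SE 0.24, adjusted p = 0.00183). Its MII values were 1.88, 1.22, 2.38, 1.63 and 1.09 FPKM in CPEB3+/- and 0.355, 0.720, 0.531, 0.695 and 0.790 FPKM in CPEB3-/- oocytes. Its embryo values were 3.79, 3.06, 1.66, 2.93 and 3.13 against 0.712, 0.731, 0.822 and 0.779 FPKM. The CPEB3-/- embryos were thus close together, at 0.761 ± 0.0497 FPKM, and all under the lowest CPEB3+/- library.

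*Zfp873*, a KRAB gene with 16 fingers, was abundant in the oocyte and nearly gone in the embryo. The CPEB3+/- MII libraries held 10.8, 6.03, 13.0, 9.05 and 6.35 FPKM and the CPEB3-/- ones 1.86, 2.89, 3.29, 4.14 and 4.59 FPKM, a difference of -1.50 (SE 0.31, adjusted p = 0.00955). In embryos 0.605, 0.618, 0.942, 0.861 and 0.803 FPKM stood against 0.141, 0.306, 0.493 and 0.276 FPKM, a fall of 1.19 (SE 0.26, adjusted p = 0.0124). With the GC trend removed the fall in embryos was -0.86, still over 1.5-fold, with an adjusted p of 0.0507.

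*Zfp345*, with 14 fingers, fell by 0.83 in oocytes (SE 0.17, adjusted p = 0.00888) and by 1.10 in embryos (SE 0.22, adjusted p = 0.00978), without overlap in either stage. Its level was 3.54 ± 0.717 against 2.06 ± 0.191 FPKM and 1.19 ± 0.286 against 0.514 ± 0.116 FPKM. Of its 50-base words 30.6% are shared with other genes, the most with *Gm14139*. *Zfp961* fell by 0.69 in each stage (SE 0.20, adjusted p = 0.0379 and SE 0.17, adjusted p = 0.0203), from 2.98 ± 0.571 to 1.95 ± 0.426 FPKM and from 1.10 ± 0.221 to 0.655 ± 0.0849 FPKM. *Zfp932*, known for silencing retroelements, fell by 0.61 (SE 0.19, adjusted p = 0.0488) and 1.12 (SE 0.34, adjusted p = 0.0434). Both of its calls were near the threshold and both were lost with the GC trend removed. Of its 50-base words 45.2% are shared with other genes, the most with *Gm15446*. Leaving out single libraries ended the *Zfp932* calls in most fits (2 of 10 and 2 of 9 kept it), and *Zfp961* kept its call in 4 of 10 fits in oocytes and 8 of 9 in embryos. With the GC trend removed *Zfp345* was called in neither stage (-0.48, under 1.5-fold, and -0.64, adjusted p = 0.0911) and *Zfp961* in oocytes only (-0.59, and -0.53 with adjusted p = 0.0636 in embryos).

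**Figure D2:**
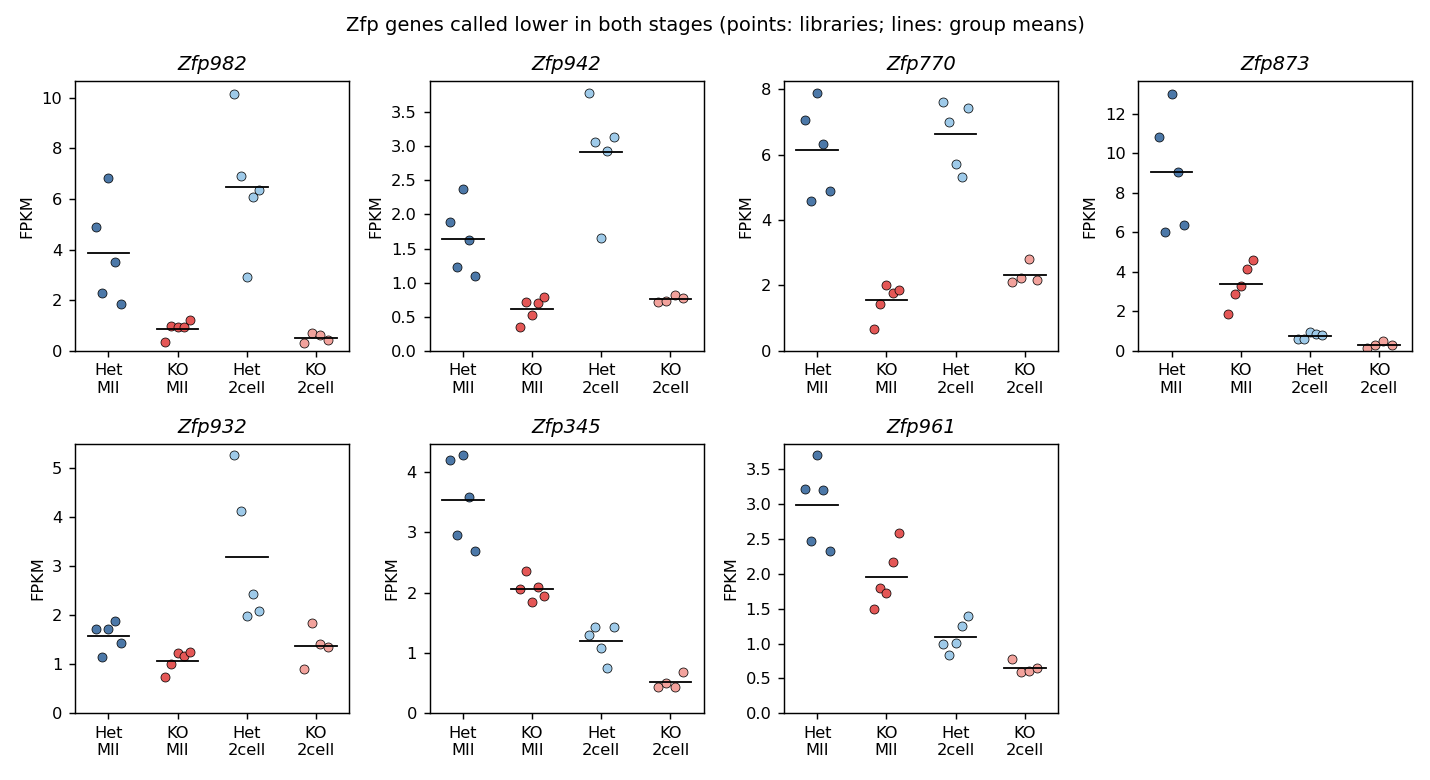
FPKM of the 7 Zfp genes called lower in CPEB3-/- libraries in both stages, with a point for each library, a line at each group mean and the y axis starting at 0. *Zfp770*, *Zfp982*, *Zfp942*, *Zfp873* and *Zfp345* show no overlap between genotypes in either stage, and *Zfp770*, *Zfp873*, *Zfp345* and *Zfp961* have their highest library in MII oocytes.

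Called lower in oocytes but not in embryos, *Zfp639* went from 2.24 ± 0.396 to 1.12 ± 0.0838 FPKM (-1.03, SE 0.13, adjusted p = 0.000666), with no overlap. Its fall in embryos, -0.73, missed the threshold (SE 0.23, adjusted p = 0.0513), so a difference between the stages is not shown. *Zfp51* (-0.88, SE 0.24, adjusted p = 0.0264) and *Zfp692* (-0.64) were the other MII genes called lower, and both overlapped between genotypes. *Zfp692* reached the level of 1 FPKM only with its CPEB3+/- MII libraries (0.677 FPKM without them), where it was high, so its fall is a description. The call of *Zfp51* was lost with the GC trend removed (-0.55, under 1.5-fold) and kept in 5 of 10 fits without 1 library. The interaction of stage and genotype was not called for any of the 3.

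The 11 further genes called lower in embryos were led by *Zfp980*. Its CPEB3+/- embryos had 7.21, 5.60, 3.25, 6.15 and 6.01 FPKM and its CPEB3-/- embryos 0.974, 1.27, 1.27 and 1.13 FPKM, a fall of 2.19 (SE 0.24, adjusted p = 0.00117). In oocytes the libraries overlapped, at 4.27, 2.67, 5.85, 3.08 and 2.06 against 0.988, 2.15, 1.70, 2.06 and 2.45 FPKM (-0.97, SE 0.34, adjusted p = 0.0639). Of its 50-base words 72.6% are shared with other genes, the most with *Rex2*, which fell as well, so the levels of both are uncertain. *Zfp979* followed at -1.37, *Zfp616* at -1.30, *Zfp944* at -1.25, *Zfp951* at -1.08, *Zfp709* at -1.07 and *Zfp735* at -1.05, all of them KRAB genes. *Zfp386* (-0.73), *Zfp131* (-0.71), *Zfp655* (-0.66) and *Zfp281* (-0.64) completed the list. *Zfp709*, *Zfp951* and *Zfp386* reached the level of 1 FPKM only with the CPEB3+/- embryos, where they were high (0.615, 0.849 and 0.562 FPKM over the other groups), so their falls are a description. With the GC trend removed the calls of *Zfp616*, *Zfp735*, *Zfp386*, *Zfp131*, *Zfp655* and *Zfp281* were lost, with *Zfp735* at -0.51 (adjusted p = 0.272) and *Zfp655* at -0.57, under 1.5-fold. *Zfp735* kept its call in 2 of 9 fits without 1 library, *Zfp386* in 4 of 9 and *Zfp616* in 6 of 9.

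Of the 6 most abundant genes *Zfp655* and *Zfp513* were called, both in embryos. *Zfp655* was 27.6, 23.5, 21.2, 23.4 and 25.4 FPKM in CPEB3+/- and 15.9, 17.8, 15.7 and 13.6 FPKM in CPEB3-/- embryos, without overlap (-0.66, SE 0.14, adjusted p = 0.00979). In oocytes it overlapped (30.8 ± 5.75 against 25.4 ± 5.87 FPKM, adjusted p = 0.224). *Zfp830* was 85.4 ± 6.81 and 92.7 ± 5.72 FPKM in oocytes and 39.0 ± 2.82 and 44.0 ± 0.869 FPKM in embryos, with differences of 0.02 (SE 0.07) and 0.13 (SE 0.10) that did not pass, although every CPEB3-/- embryo library lay above every CPEB3+/- one. *Zfp706* differed by -0.15 (SE 0.11) and -0.01 (SE 0.17). *Zfp57* was 56.7 ± 4.33 and 56.0 ± 3.75 FPKM in oocytes and 14.0 ± 0.957 and 15.2 ± 2.18 FPKM in embryos, and its differences of -0.12 (SE 0.08, adjusted p = 0.324) and 0.07 (SE 0.13, adjusted p = 0.750) did not pass either. *Zfp296* was higher in every CPEB3-/- embryo library (31.8 to 37.1 against 21.6 to 27.7 FPKM), but its difference of 0.51 (SE 0.10, adjusted p = 0.00801) was under 1.5-fold.

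The genes called higher were fewer, and of the 8 only *Zfp46* and *Zfp445* hold a KRAB pattern. *Zfp445*, which protects imprints together with *Zfp57*, was called in oocytes only. Its CPEB3+/- MII libraries had 0.628, 0.483, 0.501, 0.605 and 0.510 FPKM and its CPEB3-/- ones 1.03, 1.11, 1.22, 0.939 and 1.08 FPKM. All 5 CPEB3-/- libraries were above all CPEB3+/- libraries, and the rise was 0.78 (SE 0.11, adjusted p = 0.00171). It was called in every fit without 1 library and with the GC trend removed (0.83). In embryos the genotypes overlapped, at 1.33 ± 0.271 and 1.39 ± 0.328 FPKM (0.02, SE 0.20).

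*Zfp703*, which codes for a transcriptional corepressor, rose in both stages. Its level was 0.272, 0.866, 0.633, 0.564 and 0.791 FPKM in CPEB3+/- oocytes and 2.72, 1.77, 1.56, 0.714 and 1.37 FPKM in CPEB3-/- oocytes, where library D lay within the CPEB3+/- range. The rise there was 1.13 (SE 0.31, adjusted p = 0.0294), and 4 of the 10 fits without 1 library kept the call. In embryos 1.06, 1.86, 3.42, 1.67 and 1.84 FPKM stood against 6.26, 4.80, 4.44 and 5.18 FPKM, with no overlap (1.39, SE 0.25, adjusted p = 0.00691). The antisense gene *Gm45371* overlaps 459 bases of its exons, and without a stranded kit their reads cannot be told apart.

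Called higher in embryos but not in oocytes, *Zfp574* rose from 0.616, 0.981, 1.44, 1.08 and 1.08 to 2.34, 2.31, 2.40 and 2.92 FPKM (1.18). It reached the level of 1 FPKM only with the CPEB3-/- embryos, where it was high (0.680 FPKM over the other groups), so its rise and its interaction are a description. *Zfp513* rose from 6.19, 4.89, 9.17, 6.52 and 4.31 to 10.8, 11.1, 11.8 and 13.3 FPKM (0.91, SE 0.20, adjusted p = 0.0124), and *Zfp46* from 1.26, 1.26, 2.32, 1.60 and 1.37 to 2.32, 3.50, 3.08 and 2.86 FPKM (0.85, SE 0.19, adjusted p = 0.0151). Of the genes in this paragraph, an interaction with stage was called for *Zfp574*, *Zfp592* and *Zfp750* and not for *Zfp513*, *Zfp46* or *Zfp598*, for which a difference between the stages is not shown. *Zfp513* differed by 0.76 in oocytes (adjusted p = 0.108), and *Zfp46* was higher in every CPEB3-/- than in every CPEB3+/- oocyte library (0.26, adjusted p = 0.0698). In embryos *Zfp46* was separated by a narrow gap, since its lowest CPEB3-/- and highest CPEB3+/- embryo libraries both read 2.32 FPKM. The others were *Zfp592* (0.76), *Zfp750* (0.73), an epidermal transcription factor, and *Zfp598* (0.59), the ligase that marks collided ribosomes. With the GC trend removed *Zfp513* moved to 0.36 (adjusted p = 0.186) and *Zfp598* to 0.20 (adjusted p = 0.396), *Zfp750* (0.73, adjusted p = 0.0590) and *Zfp592* (0.55, under 1.5-fold) were no longer called either, while *Zfp574* (0.72), *Zfp46* (0.69) and *Zfp703* (0.87) were still called. With single libraries left out, 1 of 9 fits kept the call of *Zfp750* and 1 of 9 that of *Zfp598*.

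Direction followed base composition. Of the 22 genes with under 42% GC in their exons, 20 were tested in oocytes, where 7 were called lower and none higher, and in embryos 13 of the 22 were lower and none higher. Of the 22 genes with 50% or more, 1 was lower and 1 higher of 18 tested in oocytes, and none was lower and 6 higher in embryos. Of the low-GC genes lower in embryos, *Zfp709* and *Zfp951* reached the level of 1 FPKM only with the CPEB3+/- embryos. Of the high-GC genes, *Zfp574* did so only with the CPEB3-/- embryos and *Zfp692*, lower in oocytes, only with single MII groups. These counts are thus partly tied to the choice, and none by GC was made without such genes. Over all tested genes with under 42% GC, 17.3% were called lower in oocytes and 22.6% in embryos, and over those with 50% or more 8.64% and 14.3% were called higher. Across the 61 and 71 genes, Pearson's r between GC content and difference was 0.66 and 0.73 (Spearman's rho 0.70 and 0.79), and 0.37 and 0.48 once the trend over all genes had been removed. Genes share their libraries and are not replicates, so these coefficients are descriptions.

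**Figure D3:**
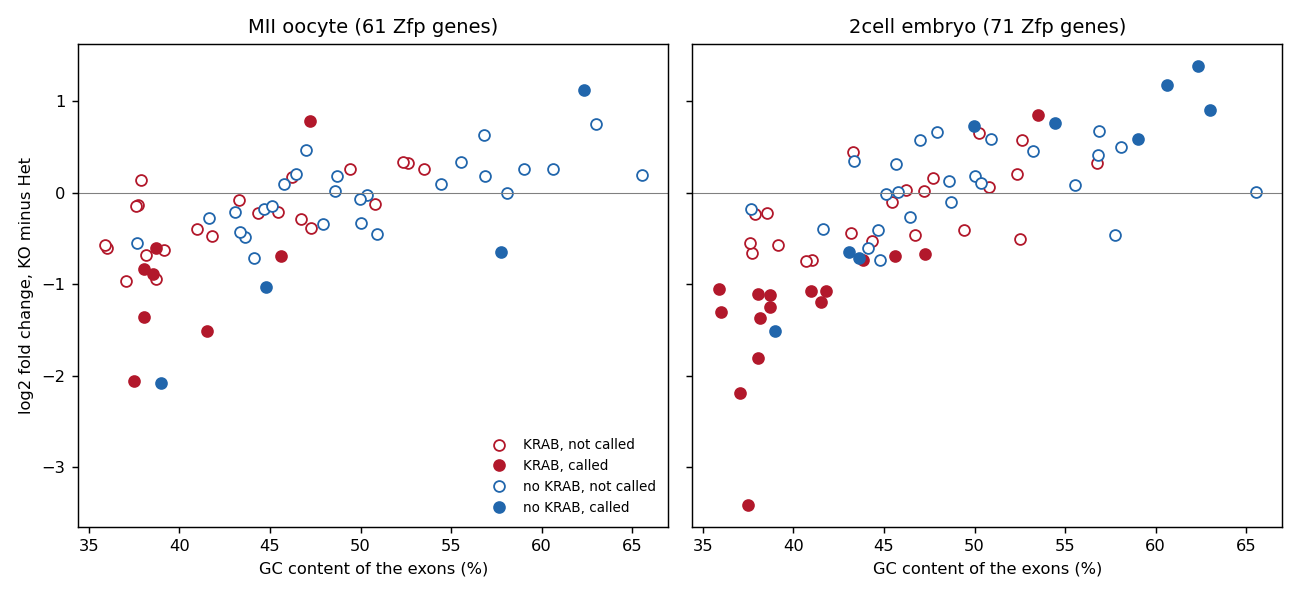
Log2 fold change of CPEB3-/- minus CPEB3+/- against the GC content of the exons for 61 Zfp genes in MII oocytes and 71 in 2cell embryos, with KRAB genes in red, the others in blue and called genes filled. No gene with under 42% GC was called higher in either stage, and in embryos no gene with 50% GC or more was called lower.

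KRAB genes and the others differed in their counts in the same way. Of the KRAB genes, 7 were lower and 1 higher of 30 tested in oocytes (median -0.39), and 15 were lower and 1 higher of 38 in embryos (median -0.56). The 15 include *Zfp386*, *Zfp709* and *Zfp951*, which reached the level of 1 FPKM only with the CPEB3+/- embryos, where they were high. The embryo median also includes *Zfp566*, *Zfp791* and *Zfp948*, which passed in the same way. The genes without the pattern gave 3 lower and 1 higher of 31 in oocytes (median -0.03) and 3 lower and 6 higher of 33 in embryos (median 0.13). Among these, *Zfp692* (lower in oocytes) and *Zfp574* (higher in embryos) also passed only with single groups. The counts are thus partly tied to the choice and are a description. With the GC trend removed the KRAB genes gave 4 lower and 1 higher in oocytes (median -0.17) and 8 lower and 2 higher in embryos (median -0.37), and the others 3 lower and 1 higher (median -0.05) and 1 lower and 3 higher (median 0.17). Of all genes so fitted, 6.31% were lower and 4.86% higher in oocytes, and 7.24% and 6.02% in embryos. Scaled to the sum of FPKM, the KRAB medians were -0.23 and -0.28, and 10 KRAB genes were lower and 4 higher in embryos. The others so scaled gave 2 lower and 2 higher in oocytes (median 0.15) and 1 lower and 11 higher in embryos (median 0.47), where the medians of all genes so scaled were 0.15 and 0.26 and 17.3% of all genes were called higher in embryos. KRAB content and GC content go together in these genes and cannot be told apart by such counts.

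Single libraries also differed along this line. Each library was described by the median difference of its low-GC genes (under 42%) from their own group mean, over genes with a group mean of at least 0.5 FPKM. In CPEB3+/- oocytes this median was 0.40 in library C and 0.21 in library A, but -0.30 in B and -0.38 in E, and library C held the highest value of 19 of the 20 low-GC genes. In CPEB3-/- oocytes library A stood at -0.58 and held the lowest value of 16 of 19 genes. In embryos library A of CPEB3+/- was at 0.41 and C at -0.30, while the CPEB3-/- libraries stayed between -0.13 and 0.22. Genes with 50% GC or more moved the other way in these libraries, at -0.35 in CPEB3+/- MII library C and 0.23 in CPEB3-/- MII library A. The part of this library trend in the genotype differences was not tested beyond the fits with the trend removed. In those fits *Zfp770*, *Zfp982* and *Zfp942* were called lower in both stages, which leaves 3 of the 7.

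**Figure D4:**
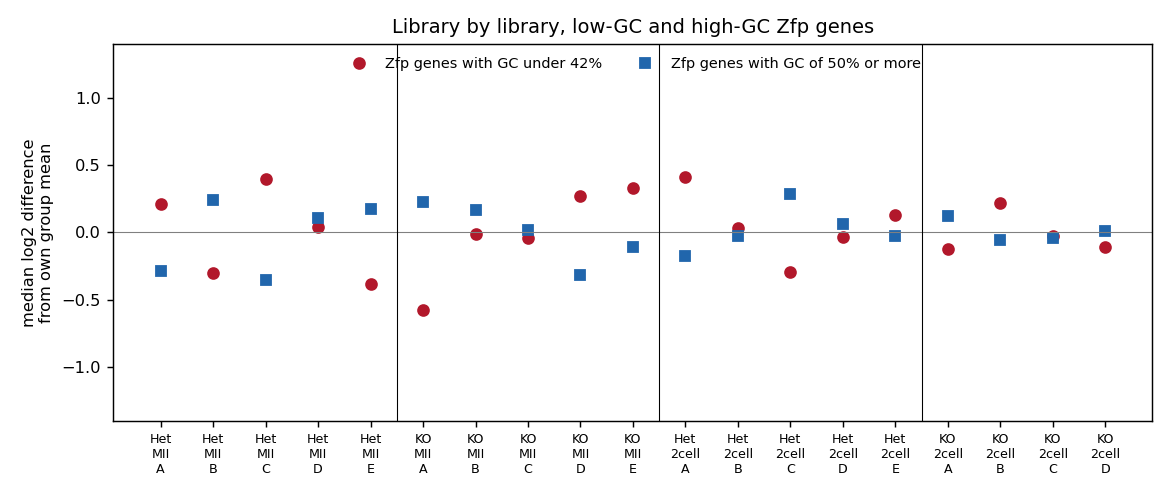
Median log2 difference of each library from its own group mean, for Zfp genes with under 42% GC (circles) and with 50% GC or more (squares), in the 19 libraries by group and letter. The circles run from -0.58 in CPEB3-/- MII library A to 0.41 in CPEB3+/- 2cell library A, and the squares mostly lie on the opposite side of 0.

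Of the 25 genes in clusters 9 were lower in embryos, and of the 46 outside them 9, and in oocytes 5 and 5. Among the 10 clusters, 4 held 2 genes lower in embryos, 1 held 1 and 5, with 12 genes, held none, and no test of clustering was made. *Zfp982* and *Zfp979* are neighbours on chromosome 4 (chr4:147492417-147642513), and *Zfp980* lies nearby (chr4:145670685-145704441). Within chr4:145000000-148000000, a window chosen after the values were seen, these 3 genes were all lower in embryos and 1 was lower in oocytes. Of the other genes tested in the window 12 of 44 were lower in embryos (27.3%) and 7 of 26 in oocytes (26.9%), compared with 10.4% and 7.56% of genes on the rest of the chromosome. These others include zinc finger genes under the level, such as *Zfp978* (1.60 and 0.213 FPKM in CPEB3+/- and CPEB3-/- embryos, -2.44) and *Zfp534* (1.01 and 0.399 FPKM, -1.19), as well as *Rex2* (-1.67). The window also held 7 genes that were higher in CPEB3-/- embryos, for example the pseudogene *Gm13241* (2.14 and 8.56 FPKM, 1.95). Of the 50-base words of *Zfp982*, *Zfp979* and *Zfp980*, 11.5%, 24.6% and 72.6% are shared with other genes, so their reads are not fully separable. Sharing was not measured for the other genes of the window. Elsewhere, both genes of a cluster on chromosome 11 (*Zfp735* and *Zfp616*, of 6 Zfp genes on that chromosome) and both of a cluster on chromosome 8 (*Zfp709* and *Zfp961*, of 6) were lower in embryos, as were *Zfp942* and *Zfp944* in a cluster of 5 on chromosome 17, which held 10. The clusters without a gene lower in embryos were a pair on chromosome 13 (*Zfp708* and *Zfp58*), a pair on chromosome 9 (*Zfp809* and *Zfp599*), both groups on chromosome 7, where *Zfp574* was higher, and a pair on chromosome 17. The last, *Zfp960* and *Zfp97*, was not called in either stage. Of their 50-base words 84.5% and 83.1% are shared with other genes, the most with each other.

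A list of 25 zinc finger genes with known roles, drawn up by function, held 16 of the 71 genes. Of the imprint pair, *Zfp445* was called in oocytes and *Zfp57* in neither stage. Of the retroelement silencers, *Zfp932* was called lower in both stages, *Zfp708* in neither (-0.55, adjusted p = 0.0938, and -0.18, adjusted p = 0.845), and *Zfp809* was not called in embryos (0.17, adjusted p = 0.639). All 50-base words of the longest *Zfp708* transcript are shared with other genes, the most with *Gm28557*, whose exons overlap its own on the same strand. *Zfp281*, a factor of pluripotent cells, was 6.90, 7.75, 8.83, 10.4 and 10.9 FPKM in CPEB3+/- and 6.66, 4.96, 5.34 and 6.40 FPKM in CPEB3-/- embryos, a small gap without overlap (-0.64, SE 0.15, adjusted p = 0.0185) that lost its call with the GC trend removed (-0.38, adjusted p = 0.147).

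*Zfp207*, a spindle protein, was lower on average in both stages but passed in neither (-0.71, adjusted p = 0.0511, and -0.60, adjusted p = 0.0697). Of the genes for RNA processing, *Zfp830* and *Zfp106* (0.19 and -0.10) were not called. Of those for ribosomes and translation, *Zfp598* was called higher in embryos, while *Zfp593* (0.68, adjusted p = 0.125), of whose 2088 exon bases 1627 overlap the opposite-strand gene *E130218I03Rik*, so that their reads cannot be told apart, *Zfp622* (0.32, adjusted p = 0.338) and *Zfp706* did not pass there. The ubiquitin ligase gene *Zfp91* was higher in both stages by less than 1.5-fold (0.47, adjusted p = 0.0343, and 0.57, adjusted p = 0.0303). With the GC trend removed it was called higher in embryos (0.68, adjusted p = 0.0219). The other calls gained there were *Zfp560* (0.70, adjusted p = 0.00759) and *Zfp566* (-0.62). *Zfp566* reached the level of 1 FPKM only with the CPEB3+/- embryos, where it was high (0.950 FPKM over the other groups), so its fall is a description. The SUMO ligase gene *Zfp451* was at 0.10 and 0.01. *Zfp592*, of a chromatin complex, was called higher in embryos.

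The partners of KRAB proteins were examined as a list of 29 symbols of corepressor and heterochromatin genes, of which 28 were in the table. *Tasor* was listed under its other symbol *Fam208a* as well. In oocytes 2 of the 20 tested were called higher, where 5.59% of all genes were, and none lower in limma, while 10 had an unadjusted p under 0.05, as did 37.1% of all genes. Without CPEB3-/- MII library A 1 was called. In embryos 2 of 25 were called higher and 2 lower, near the shares over all genes given above. *Trim28*, the direct partner of the KRAB box, was 1.81 ± 0.461 and 1.67 ± 0.283 FPKM in oocytes and 0.950 ± 0.240 and 1.01 ± 0.154 FPKM in embryos (-0.19, adjusted p = 0.368, and 0.06, adjusted p = 0.863). *Chd4*, the ATPase of the NuRD complex, was called higher in both stages (0.84, adjusted p = 0.00402, and 0.99, adjusted p = 0.00650). Its embryo values were 1.27, 0.786, 0.985, 0.770 and 1.01 FPKM against 2.38, 1.71, 2.05 and 2.11 FPKM. *Cbx1*, a heterochromatin protein gene, was higher in oocytes (0.67, adjusted p = 0.0114) and *Uhrf1*, needed to maintain DNA methylation, in embryos (1.44, adjusted p = 0.00650). *Atrx* (-0.74, adjusted p = 0.00693) and *Pphln1* (-0.66, adjusted p = 0.0374) were lower in embryos, and both calls were lost with the GC trend removed.

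From the oocyte to the embryo, the calls of genes that passed the level through 1 stage were set by the choice. Among the 34 genes with a mean of at least 1 FPKM in each stage, 5 were higher and 11 lower in CPEB3+/- and 4 higher and 12 lower in CPEB3-/- embryos, 16 called in each genotype (47.1%). Of all 3316 genes at that level in each stage, 65.0% and 61.6% were called. As a description of all 71, 50 were called in each genotype. In CPEB3+/- libraries 22 were higher and 28 lower in embryos, where 38.2% of all 15786 tested genes were called higher and 28.2% lower. In CPEB3-/- libraries 20 were higher and 30 lower, where 38.2% and 27.0% of all genes were. The split moved with the scaling, from 28 higher and 26 lower in CPEB3+/- with the values as deposited to 16 higher and 34 lower with scaling to the sum of FPKM, and in CPEB3-/- from 21 and 28 to 20 and 38. Of all genes, 41.2% were higher and 24.2% lower in CPEB3+/- as deposited and 31.5% and 37.6% with scaling to the sum, with 40.3% and 24.7% and then 33.7% and 35.3% in CPEB3-/-, and the median in CPEB3+/- moved from 0.21 to 0.36 and -0.17.

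The largest rises belonged to genes almost silent in the oocyte. Such genes reached the mean of 1 FPKM only through their embryo values, so that they had to rise and their values are a description, given without a test. *Zfp599*, a KRAB gene, was at 0.00383 to 0.00820 FPKM in CPEB3+/- oocytes and at 5.45, 4.13, 4.84, 5.56 and 5.40 FPKM in embryos (5.52). *Zfp622*, which acts late in the assembly of the large ribosomal subunit, went from at most 0.00898 to 2.75, 4.89, 6.50, 6.64 and 4.72 FPKM (5.46). *Zfp54* (5.30) and *Zfp954* (5.12) followed. For these genes the size of the rise is set by the 0.1 FPKM added, since their oocyte levels rest on very few fragments. *Zfp281* rose from 0.477 ± 0.130 to 8.95 ± 1.69 FPKM (3.79), *Zfp809* from 0.0971 ± 0.0364 to 2.09 ± 0.519 FPKM (3.31), and *Zfp593* from 0.417 ± 0.183 to 4.91 ± 1.99 FPKM (3.04). *Zfp296*, over the level in both stages, went from 10.1 ± 2.34 to 23.7 ± 2.46 FPKM (1.02).

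The largest falls in CPEB3+/- belonged to genes that passed the level through the oocyte and are likewise a description. They were those of *Zfp58* (5.93 ± 0.606 to 0.476 ± 0.190 FPKM, -3.67, SE 0.23), *Zfp873* (-3.58, SE 0.29), *Zfp60* (5.10 ± 0.229 to 0.421 ± 0.101 FPKM, -3.55, SE 0.18) and *Zfp449* (5.77 ± 0.610 to 0.665 ± 0.0916 FPKM, -3.16, SE 0.23). Of the 50-base words of *Zfp58*, 50.2% are shared with other genes, the most with *Gm26965*, whose exons overlap its own on the same strand. Of the abundant genes, *Zfp57* fell by 2.24 (SE 0.10, adjusted p = 2.39e-13) and *Zfp830* by 1.36 (SE 0.07, adjusted p = 6.12e-12), whereas *Zfp706* (0.04, SE 0.13) was not called. The CPEB3-/- libraries gave -2.04 for *Zfp57*, -1.23 for *Zfp830* and 0.20 for *Zfp706*.

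**Figure D5:**
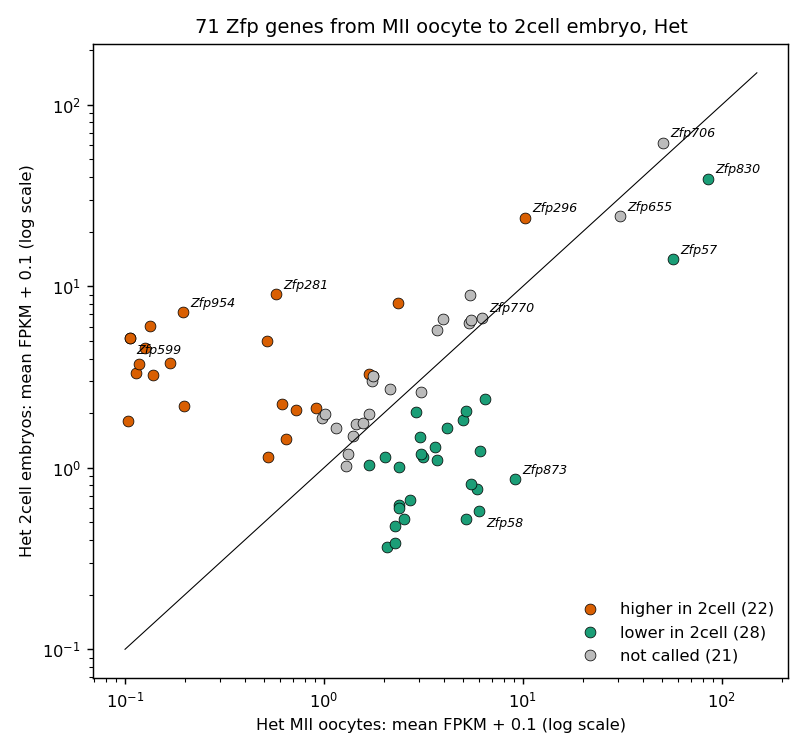
Mean FPKM + 0.1 of the 71 Zfp genes in CPEB3+/- MII oocytes (x axis) and CPEB3+/- 2cell embryos (y axis), both on log scales, coloured by whether the gene was called higher (22), lower (28) or not (21) in embryos, with a line of equal levels. *Zfp599* rises from the left edge, *Zfp873* falls from 9.06 to 0.766 FPKM, and *Zfp706* and *Zfp770* lie near the line.

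Whether genotype altered the change between stages was tested as an interaction. It was called for 5 of the 71 genes, with 4 higher and 1 lower, against 3.62% and 4.14% of all 15786 tested genes. *Zfp235*, *Zfp574* and *Zfp445* reached the level of 1 FPKM only with single groups, so their values here are a description, and without the 14 such genes 2 of 57 were called, *Zfp750* and *Zfp592*. *Zfp235* had the largest (1.05). It fell from 1.98 ± 0.0703 to 0.265 ± 0.124 FPKM in CPEB3+/- and from 1.54 ± 0.197 to 0.446 ± 0.115 FPKM in CPEB3-/-, so its CPEB3-/- libraries lay below the others in oocytes and were higher on average in embryos. *Zfp574* (0.93), *Zfp750* (0.82, SE 0.23, adjusted p = 0.0368) and *Zfp592* (0.68, SE 0.15, adjusted p = 0.00966) were the other genes with a positive value, and all 3 were called higher in embryos and not in oocytes. *Zfp445* was the only gene with a negative one (-0.75), since it rose by 0.93 between the stages in CPEB3+/- and by 0.18 in CPEB3-/-. Of the 2 genes that did not depend on a single group, *Zfp592* kept its call in 18 of 19 fits without 1 library and *Zfp750* in 5 of 19. Without CPEB3-/- MII library B, CPEB3-/- MII library C or CPEB3-/- 2cell library C, 2 genes were called, and 3 without CPEB3+/- MII library B, D or E, CPEB3-/- MII library D or E, or CPEB3+/- 2cell library D.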

How the data were processed

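RNA-seq libraries of pooled MII oocytes and 2cell embryos were made with SMART-seq v4. Per the labels and methods, the authors trimmed reads with Trim Galore 0.4.1, aligned them to GRCm38 with HISAT2 2.0.5 and computed the values in SeqMonk. The deposited values are FPKM and not counts, since almost none is whole, so no count model was used. Depth was estimated from the steps between low values, of which 43.4 to 47.5% lay near whole fragments (10% by chance).

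All 25891 genes were used. Values were scaled by a trimmed mean (30% of ratios and 5% of levels trimmed on each side) and compared as log2(scaled FPKM + 0.1) with limma 3.58.1 in R 4.3.3 (trend, Benjamini-Hochberg over all genes tested). The MII and 2cell genotype comparisons were fitted separately and the stage comparisons and interaction over all 19 libraries. Genes needed at least 0.1 FPKM in 5 MII, 4 2cell or, for the stages, 4 libraries. A fold change understates the change of low genes. For an alternative, a loess trend (span 0.5) of log2 values on exon GC content was removed from each library. Groups came from the labels. Exons, 3′UTRs and proteins came from GENCODE vM21, in which all 71 genes were found.

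The members and lists were chosen with earlier results of these data known. Genes named were *Zfp770*, the 6 highest, the 4 largest called changes in each direction without overlap in each genotype comparison and between the stages in CPEB3+/-, called interactions, and genes of the role list. Others were named after their values were seen. Alternatives were another pseudocount, other filters and scalings, a replicate block, removal of the GC trend, no fold threshold, a joint fit, and each library left out.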

Additional observations from a re-analysis of the deposited data

Results flagged for a closer look

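Single libraries far from the rest of their group were sought in 152 groups of values of the named Zfp genes, where chance alone marks about 1 in 20, and 10 were found. No explanation is weighed for any of them. Among CPEB3-/- 2cell embryos, *Zfp770* was 2.80 FPKM in library C (others 2.11 to 2.23), *Zfp574* 2.92 in library D (others 2.31 to 2.40) and *Zfp451* 0.744 in library D (others 0.994 to 1.04). Among CPEB3+/- 2cell embryos, *Zfp954* was 8.90 in library D (others 6.29 to 6.95) and *Zfp449* 0.503 in library B (others 0.688 to 0.724). Library A of that group gave 2.04 for *Zfp708* (others 0.358 to 0.785) and 2.28 for *Zfp951* (others 1.26 to 1.47). In MII oocytes *Zfp46* was 6.33 in CPEB3-/- library B (others 4.85 to 5.07), *Zfp106* 2.09 in CPEB3-/- library A (others 1.52 to 1.62) and *Zfp281* 0.255 in CPEB3+/- library C (others 0.495 to 0.576).

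The interaction of stage and genotype was past the threshold in 5 genes. It is a description for *Zfp235*, *Zfp574* and *Zfp445*, which had reached the level of 1 FPKM only with single groups, and a test of the difference for *Zfp750* and *Zfp592*. The interaction was 1.05 for *Zfp235* (-0.45 in oocytes and 0.59 in embryos), 0.93 for *Zfp574* (0.26 and 1.18), 0.82 for *Zfp750* (-0.07 and 0.73), 0.68 for *Zfp592* (0.10 and 0.76) and -0.75 for *Zfp445* (0.78 and 0.02).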

How the results depend on the processing

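No named gene's called difference turned its direction under an alternative. Over 109 results and 2322 alternative values, 2171 kept their direction and side of the threshold or stayed near the main count. The rest were weaker in 98 cases and stronger in 53, by a call lost or gained or by a count that moved. The number of Zfp genes called in oocytes, 12, went to 7 with a pseudocount of 1 FPKM and ranged from 7 to 14 with a library left out, while the share of all genes called, 12.9%, went to 4.57% and ranged from 8.77 to 14.3%. The 25 called in embryos went to 14 with that pseudocount, to 14 with the GC trend removed, and ranged from 19 to 28, while the share of all genes, 18.1%, went to 8.27% and 13.3% and ranged from 12.6 to 18.8%. The 5 interactions went to 1 with the pseudocount and ranged from 2 to 7. The 2 corepressors called in oocytes went to 1 with the pseudocount and to 4 with no fold threshold, and ranged from 1 to 3, and the 4 in embryos went to 2 with the pseudocount. The 50 calls between stages in each genotype stayed within 1.5 times under every alternative run. Leaving out a library kept 7 of the 12 oocyte and 17 of the 25 embryo calls in every fit.

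Libraries with the same letter did not deviate together, with correlations of -0.175, 0.0238, -0.0589, 0.120 and -0.150 in oocytes and -0.0690, -0.0401, -0.0687 and 0.0364 in embryos, so the letters do not pair them. A replicate block gave 7 called genes in oocytes, 5 in embryos and 1 interaction, and 1 corepressor in embryos, while the shares of all genes called were 7.84%, 2.63% and 5.31%. Values under about 0.130 FPKM rest on fewer than 10 fragments at the median exon length. The cause of these shifts was not tested.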
